A study of Rattus norvegicus with 65 samples.

Results

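Primary neonatal rat cardiomyocytes were kept in DMSO, the solvent of the drugs in the series, at 1% (DMSO1, the vehicle of 5-fluorouracil) or at 0.25% (DMSO2, the vehicle of acetaminophen and doxorubicin). The comparison described here is DMSO1 against DMSO2 after 6 h, over all genes, and it addresses how the transcriptome differed between the solvent concentrations. The labels give no plate or position of the wells, so differences in these cannot be told apart from the concentration. The comparison took the libraries whose column heading named one of these groups, 6 of DMSO1_6 and 7 of DMSO2_6, which makes 13 of 65 libraries. The genes found at 6 h were then followed into DMSO1_24 against DMSO2_24, in another 13 libraries (6 and 7). None of these groups received a drug, and none was free of DMSO, so the lower solvent concentration is the reference throughout. All cells were plated in serum and starved of it overnight before exposure. Hearts of several litters were harvested on the same day and their cells mixed before plating, so that the libraries are wells of 1 cell pool and the p-values measure the spread between wells. Libraries are numbered by the order of their columns, which only names them.

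DMSO is a small polar solvent that crosses membranes and carries poorly soluble drugs into medium. Neonatal heart muscle cells in culture are known to answer load and growth stimuli by raising natriuretic peptides, fetal isoforms of actin and myosin, and proteins of the Z-disc, where thin filaments and titin are anchored. Cells short of sterol release the SREBP transcription factors from the endoplasmic reticulum, which raise the enzymes of cholesterol synthesis. Heart isolates also hold fibroblasts, endothelial cells and mural cells, and the RNA measured came from all of these together.

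The libraries of the 4 DMSO groups held between 14332827 and 21970914 estimated counts, and 12437 of 14554 genes had at least 10 counts in each of the 26. Markers of heart muscle were abundant, with 34290 to 40430 CPM (library-size and TMM-normalised counts, the unit of every level below) summed over 10 genes in DMSO2 at 6 h. One library of each time stood apart on the first principal component. DMSO1_6 library 3 lay at -8.57 on the first principal component of the 6 h libraries (31.5% of the variance), whereas the other 5 DMSO1 libraries lay between 10.3 and 36 and the DMSO2 libraries between -19 and -13.7. Of the 125 genes called higher by at least 1 on the log2 scale, 89 were at or below the highest DMSO2 library in library 3, against 0 to 12 in each of the others. Of the 40 genes called lower by at least 1, 15 were not below the DMSO2 range in it. The components at 24 h were computed on CPM scaled by library size alone, without TMM. On the first, DMSO1_24 library 1 lay at -36.9 (25.2% of the variance), the other 5 DMSO1 libraries between -0.344 and 1.30 and the DMSO2 libraries between 2.80 and 7.02. On the second (17.2%), DMSO1_24 libraries 5 and 6 lay at -16.6 and -21.9, and all others between -3.24 and 10.1. All libraries were kept, and results that rest on DMSO1_6 library 3 or DMSO1_24 library 1 are given with and without them.

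At 6 h, 2397 of 14554 genes (16.5%) were differentially expressed genes (DEGs) between 1% and 0.25% DMSO, at a false discovery rate (FDR) below 0.01 in edgeR's quasi-likelihood test. DMSO1 was higher for 1436 of them (9.87% of all genes) and lower for 961 (6.60%). Large changes were mostly increases, with 125 genes higher and 40 lower by at least 1 on the log2 scale. Without library 3, 2892 genes were called, 1676 higher and 1216 lower, and 2337 of the 2397 were among them. The balance of directions rested on the scaling: with library size alone, without TMM, 723 were higher and 1720 lower. In 350 genes (2.40%) every DMSO1 library lay above every DMSO2 library, and in 388 (2.67%) every one lay below. Gene lists are described below by how many members were called, to be read against the 9.87% and 6.60% of all genes, and by their median log2 fold change, to be read against 0.01 over all genes. Members and lists were chosen with earlier results of these data known, so a share above these may follow from that choice. No list was tested. An unadjusted p below 0.05 in edgeR was reached by 5318 of the 14554 genes at 6 h and by 2370 at 24 h. List counts at that limit are to be read against these.

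**Figure D1:**
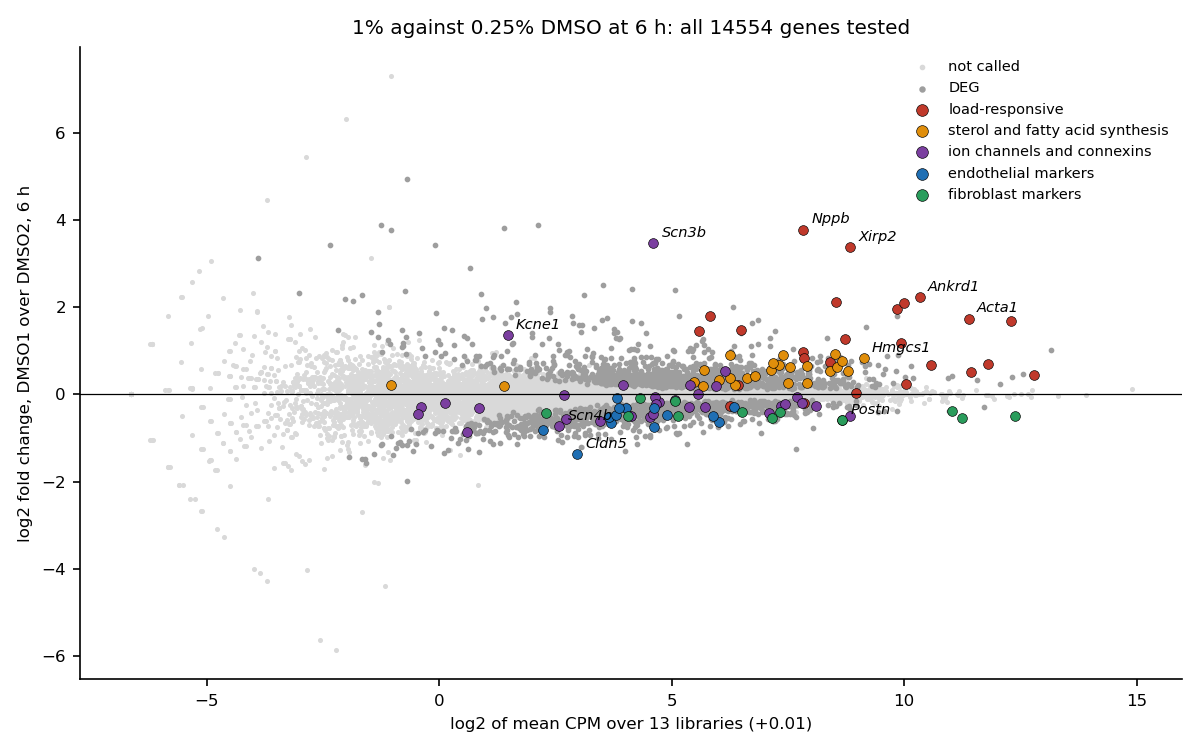
Log2 fold change of DMSO1 over DMSO2 at 6 h (vertical axis) against the mean level over 13 libraries (horizontal axis, log2 CPM) for all genes tested, with DEGs in darker grey and 5 gene lists in colour. Load-responsive genes reach 3.78 (Nppb) and endothelial markers -1.38 (Cldn5).

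Among the largest increases were genes that heart muscle raises under load. Of 26 natriuretic and load-responsive genes tested, 19 were higher in 1% DMSO, 1 was lower and 6 were not called, with a median log2 fold change of 1.08. Nppb, which encodes the B-type natriuretic peptide secreted by stretched heart muscle, lay between 28.02 and 40.2 CPM in DMSO2 (median 32.6) and between 30.7 and 883 CPM in DMSO1 (median 453). Library 3 gave the lowest value, within the DMSO2 range, and the other 5 DMSO1 libraries started at 196 CPM. The log2 fold change was 3.78 ± 0.34 (SE, edgeR, FDR = 1.1e-12). Nppa, the atrial natriuretic peptide, was not called (0.44, edgeR FDR = 0.0363), and its groups overlapped, between 4730 and 7416 CPM in DMSO2 and between 6808 and 9729 CPM in DMSO1.

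Proteins of the Z-disc and of filament attachment followed. Xirp2, an actin-binding protein of the intercalated disc, lay between 65.6 and 111 CPM in DMSO2 and between 115 and 1511 CPM in DMSO1 (median 970.3), so that library 3, the lowest, was still above every DMSO2 library (3.39 ± 0.32, edgeR FDR = 3.93e-12). Ankrd1, a stretch-responsive partner of titin, lay between 431 and 512 CPM in DMSO2 and between 483 and 3796 CPM in DMSO1 (2.23 ± 0.22, edgeR FDR = 1.55e-11). Its lowest value was again library 3, and the next was 1098 CPM. Enah, which promotes actin filament elongation, rose by 2.13 ± 0.21, Fhl1, a LIM protein of the sarcomere, by 2.10 ± 0.27 and Csrp3, the muscle LIM protein, by 1.96 ± 0.22. In each of these 3 the lowest DMSO1 library was library 3.

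Fetal contractile isoforms were in the same list. Acta1, skeletal alpha-actin, lay between 994 and 1418 CPM in DMSO2 and between 1613 and 7001 CPM in DMSO1, and Myh7, the slow beta-myosin heavy chain, between 2334 and 2636 CPM in DMSO2 and between 3246 and 12140 CPM in DMSO1. Neither gene's groups overlapped, with 1.74 ± 0.29 for Acta1 (FDR = 4.45e-06) and 1.69 ± 0.23 for Myh7 (FDR = 8.27e-08) in edgeR. Rcan1, a feedback inhibitor of calcineurin, rose by 1.47, the Z-disc proteins Flnc, Nrap and Xirp1 by 0.84 to 1.28, and the small heat shock protein Cryab by 0.68. Postn, a matrix protein of fibroblasts, was the member that fell (-0.58). The median of the list was 0.01 above the DMSO2 mean in library 3 and 0.80 to 1.44 above it in the other 5 DMSO1 libraries.

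Promoter windows of 4 genes that rose are shown because short motifs known from load-responsive promoters lie in them. They run from 200 to 51 bases before the RefSeq start of transcription (assembly GRCr8), 5′ to 3′ on the gene's strand: Nppb at chr5:163699808-163699957 (plus strand), Xirp2 at chr3:72533986-72534135 (plus), Ccn2 at chr1:22624665-22624814 (minus) and Acta1 at chr19:68784245-68784394 (minus). Capitals mark matches on either strand to 4 motifs. The letters CATTCC are the M-CAT element, bound by TEAD factors. The letters AGATAA are a form of the GATA site, and no other form was searched or marked. The letters TGANTCA, with C or G as N, are the AP-1 site, and the CArG box is bound by SRF.
Nppb: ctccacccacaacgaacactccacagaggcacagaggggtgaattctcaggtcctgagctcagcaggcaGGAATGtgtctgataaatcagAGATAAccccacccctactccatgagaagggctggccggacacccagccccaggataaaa
Xirp2: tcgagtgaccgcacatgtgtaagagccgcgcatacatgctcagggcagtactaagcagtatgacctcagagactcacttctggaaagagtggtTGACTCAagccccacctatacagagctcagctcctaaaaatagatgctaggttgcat
Ccn2: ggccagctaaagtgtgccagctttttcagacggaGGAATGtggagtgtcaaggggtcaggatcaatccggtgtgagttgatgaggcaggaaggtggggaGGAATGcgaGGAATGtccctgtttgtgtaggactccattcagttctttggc
Acta1: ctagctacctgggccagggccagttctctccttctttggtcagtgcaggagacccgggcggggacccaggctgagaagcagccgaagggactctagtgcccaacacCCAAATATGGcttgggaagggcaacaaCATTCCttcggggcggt

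The Nppb window held M-CAT and GATA letters, that of Xirp2 an AP-1 site, that of Ccn2 the M-CAT letters 3 times, and that of Acta1 a CArG box and the M-CAT letters. Windows from 250 bases before to 50 after the start were found for 11403 of 14554 genes, and 12% of these genes held M-CAT letters, 6.80% GATA letters, 3.79% an AP-1 site and 1.36% a CArG box. Among the 84 genes with a window that rose by at least 1, the shares were 20.2%, 9.52%, 5.95% and 3.57%. The 25 genes with a window that fell by at least 1 held M-CAT letters in 4, GATA letters in 1, an AP-1 site in 2 and a CArG box in 0. Their M-CAT and AP-1 shares were thus also above those of all genes, and their GATA and CArG shares below. Of 15 load-responsive genes that rose and had a window, 4 held M-CAT letters, 2 GATA letters, 3 an AP-1 site and 2 a CArG box. A match describes letters in a window, and no difference between these shares was tested.

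**Figure D2:**
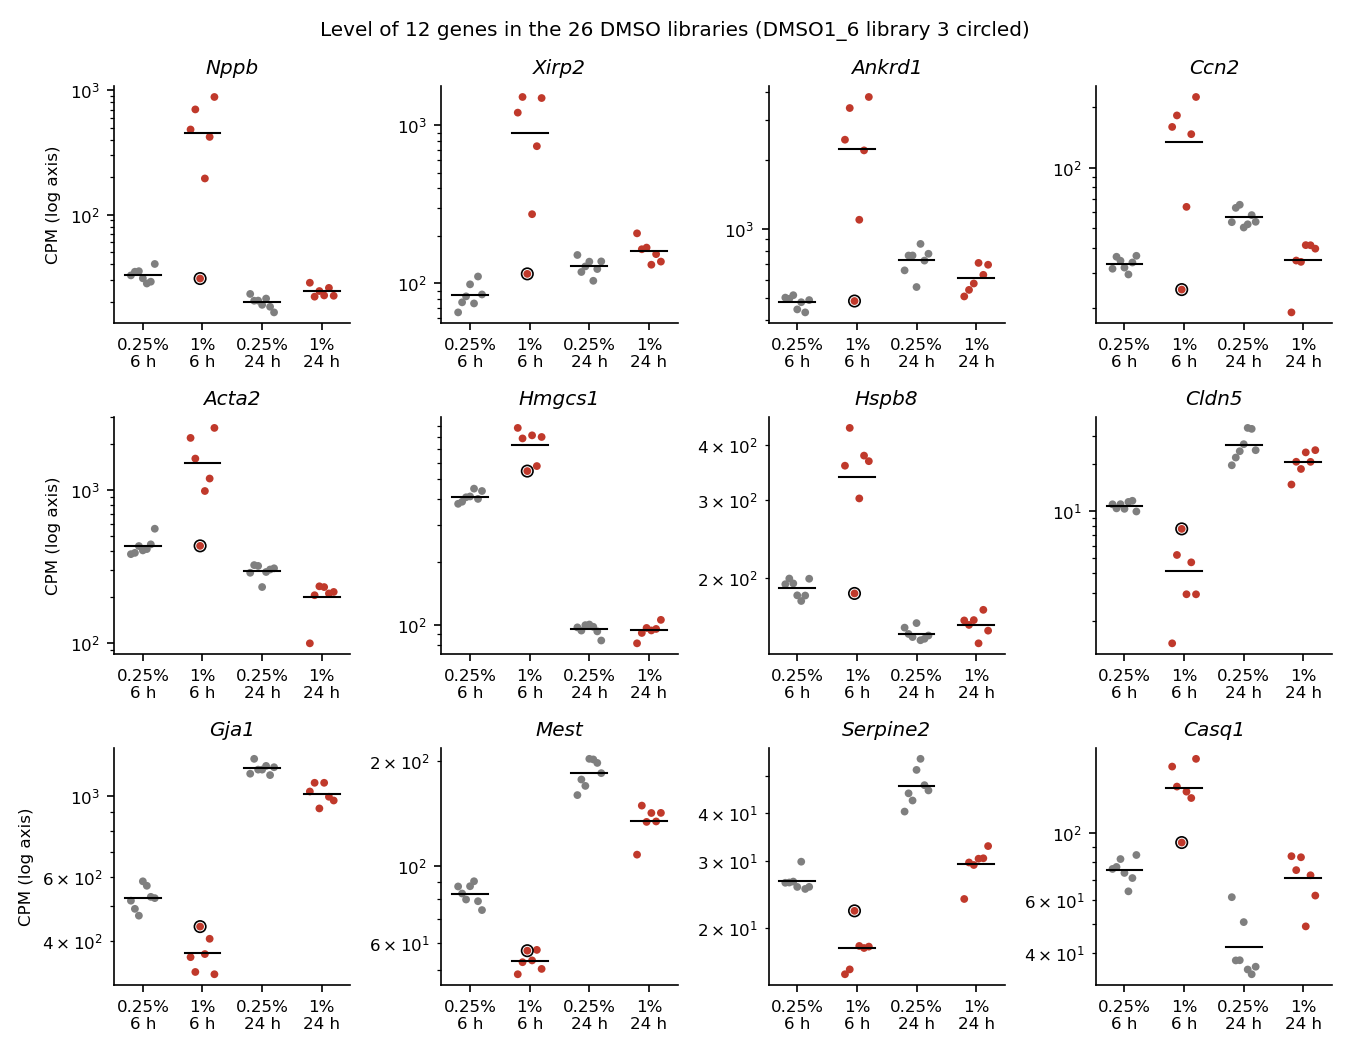
CPM (log axis) of 12 genes in each of the 26 DMSO libraries, as points, with group means as lines, 0.25% DMSO in grey and 1% in red. The circled DMSO1_6 library 3 lies among the DMSO2 libraries for Nppb (30.7 CPM), Ankrd1, Acta2 and Hspb8 and below them for Ccn2 (24.8 CPM), but with the DMSO1 libraries for Mest (56.9 CPM).

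Targets of the mechanosensitive coactivator YAP and of the actin-regulated factor SRF rose in part. Of 13 YAP and TEAD targets 7 were higher and 0 lower (median 0.34), and of 20 actin cytoskeleton and SRF targets 12 were higher and 0 lower (median 0.36). Ccn2, a secreted matricellular protein and common readout of YAP, lay between 29.5 and 36.5 CPM in DMSO2 and between 24.8 and 225 CPM in DMSO1 (2.0 ± 0.20, edgeR FDR = 3.24e-11). Library 3 was below every DMSO2 library, and the other 5 DMSO1 libraries lay at 63.97 CPM or more. Ccn1, its relative, rose by 1.08 and Amotl2, an inhibitor of YAP and also its target, by 0.64.

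Among the actin genes, Acta2, smooth muscle alpha-actin, lay between 383 and 561 CPM in DMSO2 and between 434 and 2557 CPM in DMSO1 (1.79 ± 0.26, edgeR FDR = 3.66e-07). The lowest DMSO1 value was library 3, inside the DMSO2 range. The crosslinker Actn1 rose by 1.30, the calponin Cnn1 by 1.46, the transgelin Tagln by 1.55 and the focal adhesion protein Zyx by 0.62. The cytoplasmic actins were not called (-0.02 for Actb and -0.14 for Actg1). The median of the actin list was -0.06 in library 3 and 0.26 to 0.57 in the other 5 DMSO1 libraries.

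TGF-beta and BMP signalling genes gave 8 higher and 2 lower of 22 (median 0.26, with 12 higher without library 3). The ligand Tgfb2 lay between 52.3 and 64.8 CPM in DMSO2, at 54.9 CPM in library 3 and between 105 and 261 CPM in the other DMSO1 libraries (1.72 ± 0.19). Tgfb3 rose by 1.0, and the inhibitors of the pathway Smad6, Smad7 and Skil by 0.44 to 0.72. The receptors Tgfbr2 and Tgfbr3 fell, by 0.31 and 0.44.

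Adult sarcomere genes gave 11 higher and 0 lower of 20 (median 0.36). Tcap, the titin cap protein, rose by 1.10, Actc1, cardiac alpha-actin, by 1.03 and Myoz2, a Z-disc protein that binds calcineurin, by 0.89. Myh6, the fast alpha-myosin heavy chain (-0.01), and Tnni3, cardiac troponin I (-0.08), were not called. Calcium handling genes gave 6 higher and 2 lower of 24: Jph2, which ties the sarcoplasmic reticulum to the surface membrane, rose by 0.66 and the calcium buffers Casq1 and Casq2 by 0.90 and 0.39, while the calcium pump Atp2a2 and its inhibitor Pln fell by 0.28 and 0.38. The median of that list, 0.07, was -0.02 with library size alone. Cardiac transcription factors gave 4 higher and 1 lower of 24, with Srf at 0.48, Gata4 at 0.42, Tbx20 at 0.39 and Irx4 at -0.38.

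Ion channels and connexins went mainly the other way, with 12 lower, 3 higher and 17 not called of 32 (median -0.24). Gja1, connexin 43, the main gap junction protein of the ventricle, lay between 469 and 583 CPM in DMSO2 and between 324 and 438 CPM in DMSO1. Its groups did not overlap, library 3 included (-0.50 ± 0.08, edgeR FDR = 7.03e-07). The potassium channel genes Kcnj2, Kcnj3, Kcnj8, Kcnj11, Kcnj12, Kcnh2 and Kcnq1 fell by 0.29 to 0.60, and the sodium channel subunit Scn4b by 0.73.

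The channel genes that rose encode auxiliary subunits. Scn3b, a sodium channel beta subunit, lay between 3.33 and 5.34 CPM in DMSO2 and between 5.53 and 75.3 CPM in DMSO1, the lowest again in library 3 (3.47 ± 0.37, edgeR FDR = 1.31e-10). Kcne1, a subunit of the slow potassium channel, rose by 1.37 and Cacna2d1, a calcium channel subunit, by 0.54. The alpha-1 adrenergic receptors, which carry noradrenaline signals, fell: Adra1d by 0.96 ± 0.14 and Adra1b by 0.76 ± 0.09. Adra1b lay between 32.2 and 39.2 CPM in DMSO2 and between 15.9 and 30.7 CPM in DMSO1, without overlap.

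In sterol and fatty acid synthesis, all 25 genes tested had a positive log2 fold change, 21 were called higher and 0 lower (median 0.55). Every DMSO1 library lay above every DMSO2 library in 14 of them. Hmgcs1, which makes HMG-CoA for the mevalonate pathway, lay between 381 and 450.1 CPM in DMSO2 and between 547 and 881 CPM in DMSO1, with library 3 the lowest and still above DMSO2 (0.83 ± 0.10, edgeR FDR = 8.08e-09). Idi1 and Fdps of the isoprenoid steps rose by 0.90 and 0.77, and Sqle, the squalene epoxidase, by 0.73. The fatty acid synthase Fasn and the desaturase Scd rose by 0.54 and 0.90, and Acaca, Srebf1 and Elovl6 were among those not called. The median of the list was 0.22 in library 3 and 0.34 to 0.79 in the other 5. The count was 21 without library 3 and 17 with library size alone.

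Fatty acid oxidation genes gave 0 higher and 6 lower of 23 (median -0.14, with 13 lower with library size alone). Cpt1a and Cpt2, which carry fatty acids into mitochondria, fell by 0.34 and 0.35, and Pdk4, which holds glucose carbon out of the citric acid cycle, by 0.53. The glycolytic phosphofructokinase Pfkp rose by 0.81. In edgeR, 0 of 31 respiratory chain subunits and 0 of 26 cytosolic ribosomal protein genes were called in either direction, with 2 and 0 at an unadjusted p below 0.05 and 0 calls in DESeq2 in both.

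Stress responses were uneven. Heat shock genes gave 9 higher and 0 lower of 18 (median 0.22). Hspb8, a small heat shock protein of muscle, lay between 177 and 199 CPM in DMSO2, at 184 CPM in library 3 and between 302 and 437 CPM in the other 5 DMSO1 libraries (0.83 ± 0.09, edgeR FDR = 4.4e-10). Hspb1, Hsp90aa1 and Hspa1b rose by 0.67 to 0.76. Targets of ATF4, the factor of the amino acid response, gave 7 higher and 1 lower of 23, led by Mthfd2 (0.85) and the amino acid transporter Slc7a3 (0.76). Immediate early genes gave 8 higher and 1 lower of 30: Atf3 (0.98), Jund (0.79) and Jun (0.72) rose, the phosphatase Dusp5 fell (-0.73), and Fos (-0.02) and Egr1 (0.33) were not called.

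ER stress genes gave 0 higher and 2 lower of 22, p53 targets 2 higher and 1 lower of 25 and NRF2 and glutathione genes 3 higher and 1 lower of 23, against 9.87% higher and 6.60% lower over all genes. Hypoxia-responsive genes gave 0 higher and 3 lower of 20 and NFAT5-related osmotic stress genes 4 higher and 2 lower of 16, with medians of -0.01 and 0.03. Of 19 sulfoxide reductases, peroxiredoxins and superoxide dismutases, Msrb3, a methionine sulfoxide reductase, was the 1 called (0.52). DNA methylation and demethylation genes gave 4 higher and 0 lower of 20, among them Gadd45g (1.27), Gadd45a (0.57) and Mat2a, which makes the methyl donor S-adenosylmethionine (0.49). The methyltransferases Dnmt1, Dnmt3a and Dnmt3b were not called (0.16, -0.06 and -0.04), and histone deacetylases and acetyltransferases gave 0 higher and 0 lower of 22. Chemokines and cytokines gave 0 higher and 3 lower of 21, interferon-responsive genes 1 higher and 3 lower of 22, glucocorticoid-responsive genes 1 higher and 2 lower of 15, citric acid cycle genes 1 higher and 2 lower of 21 and glycolysis genes 3 higher and 1 lower of 22.

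Some cell cycle and ribosome assembly genes rose by small amounts. DNA replication genes gave 11 higher and 0 lower of 27 (median 0.30), G2/M and mitosis genes 9 higher and 0 lower of 25 (median 0.27) and ribosome biogenesis genes 9 higher and 0 lower of 26 (median 0.18). Examples were Ccne2, which drives entry into S phase (0.69), Rrm2, a ribonucleotide reductase subunit (0.61), Anln of the contractile ring (0.69) and Rrp12 (0.83). With library size alone, 5, 2 and 2 were higher. These counts changed with the libraries used: without DMSO1_6 library 6 the calls were 7, 3 and 5, G2/M genes gave 4 without DMSO1_6 library 1 and 5 without DMSO2_6 library 1, and ribosome biogenesis genes gave 3 without DMSO1_6 library 2 and 14 without library 3. Circadian clock genes gave 2 higher and 5 lower of 18: the activating pair Bmal1 and Clock rose by 0.64 and 0.48, and Dbp, Tef, Per3 and Nr1d2 were among those that fell, by 0.25 to 0.52. Of the lower clock calls 3 were left without DMSO1_6 library 1, 1 without library 2 and 1 without library 6.

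**Figure D3:**
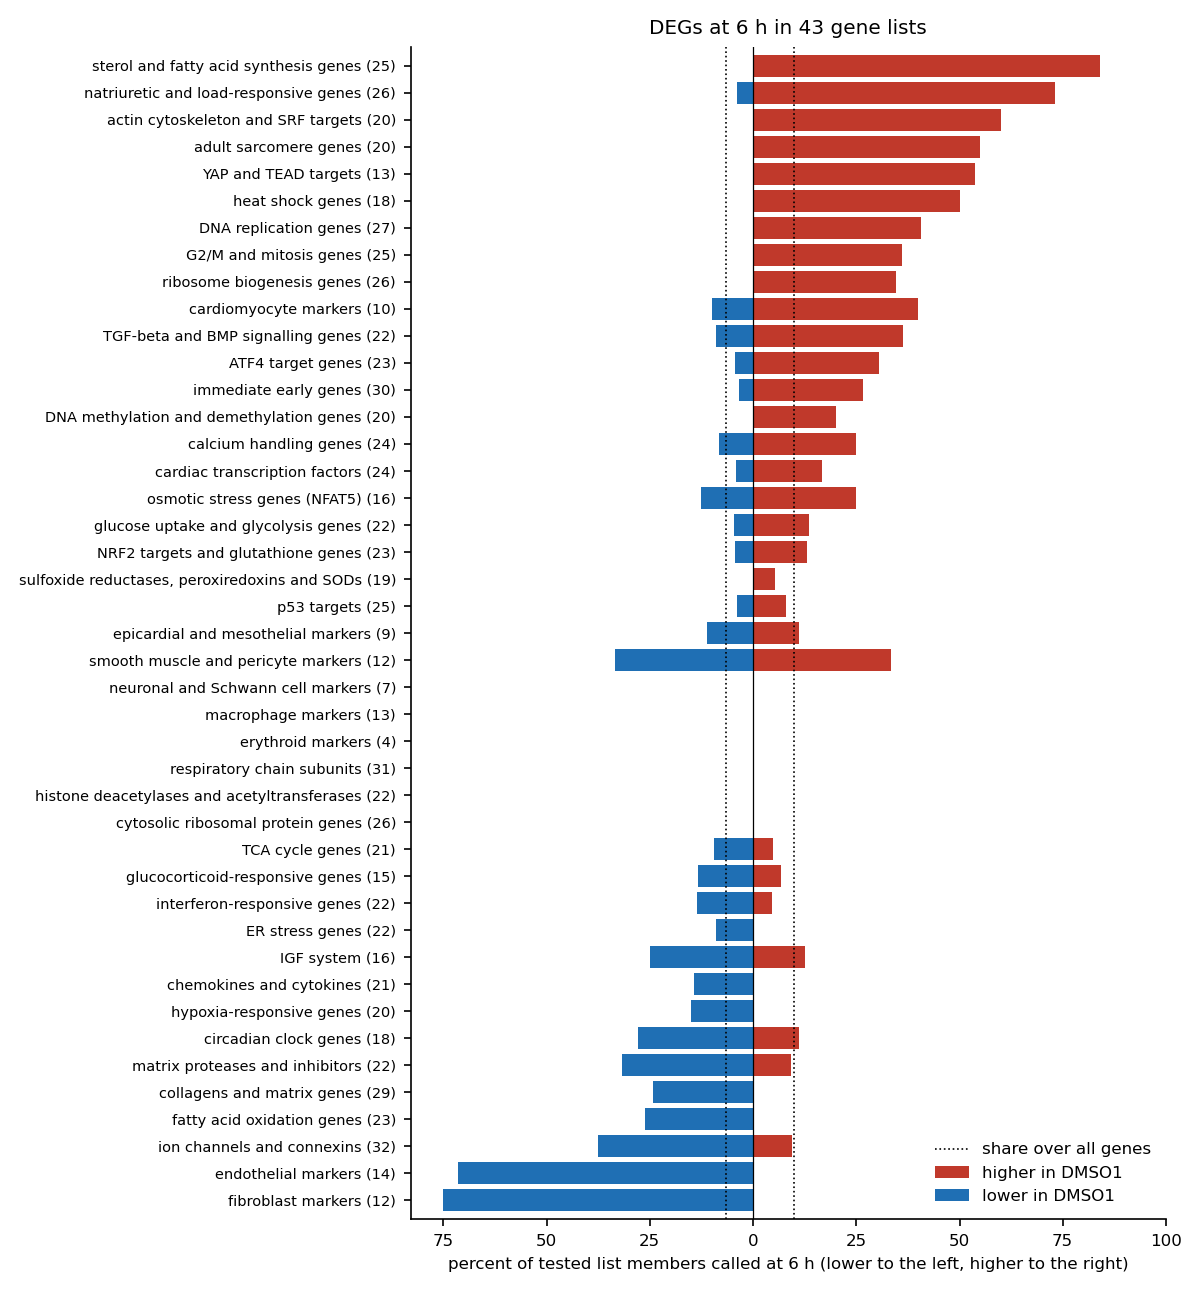
Percent of the tested members of 43 gene lists (number tested in brackets) called higher (red, to the right) or lower (blue, to the left) in DMSO1 at 6 h, with dotted lines at the shares over all genes, 9.87% and 6.60%. Sterol synthesis (21 of 25) and load-responsive genes (19 of 26) reach far right, and fibroblast (9 of 12) and endothelial markers (10 of 14) far left.

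Markers of endothelial cells and fibroblasts were mostly lower in 1% DMSO. Endothelial markers gave 0 higher and 10 lower of 14 (median -0.48) and fibroblast markers 0 higher and 9 lower of 12 (median -0.46), and every member of both lists had a negative log2 fold change. In bulk RNA, fewer cells of a type and less RNA per cell cannot be told apart. Cldn5, the endothelial claudin, lay between 9.91 and 11.6 CPM in DMSO2 and between 1.43 and 7.68 CPM in DMSO1 (-1.38 ± 0.26, edgeR FDR = 4.09e-05), and Cdh5, VE-cadherin, between 65.4 and 91.1 CPM in DMSO2 and between 39.9 and 61.7 CPM in DMSO1 (-0.64 ± 0.12). Neither gene's groups overlapped. Kdr, a VEGF receptor, fell by 0.76, and Robo4, Emcn, Esam and Tie1 by 0.49 to 0.81. Among fibroblast genes, Lum, a matrix proteoglycan, lay between 155 and 183 CPM in DMSO2 and between 101 and 129.9 CPM in DMSO1, again without overlap (-0.55 ± 0.09, edgeR FDR = 1.2e-06).

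The summed level of the endothelial list was 264 to 361 CPM in DMSO1 and 385 to 489 CPM in DMSO2, and that of the fibroblast list 6579 to 11000 CPM and 9781 to 14560 CPM. The endothelial sums did not overlap and the fibroblast sums did. In library 3 the endothelial median was -0.44, inside the range of the other DMSO1 libraries (-0.77 to -0.27), and the fibroblast median -0.27, where the other 5 lay between -0.58 and -0.38. Macrophage markers gave 0 higher and 0 lower of 13, 0 of them at an unadjusted p below 0.05, with summed levels of 77.8 to 102 CPM in DMSO1 and 79.4 to 95.9 CPM in DMSO2. Epicardial markers gave 1 higher and 1 lower of 9, and neuronal and erythroid markers 0 higher and 0 lower of 7 and 0 higher and 0 lower of 4. Cardiomyocyte markers gave 4 higher and 1 lower of 10, with summed levels of 38910 to 49260 CPM against 34290 to 40430 CPM. Their median was 0.05 (-0.04 with library size alone), with 5 members above 0 and 5 below. Myh7, named above among the load-responsive genes, is also in this list. It had the largest log2 fold change of the list (1.69), and the sums include its rise.

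Matrix genes went the same way, though the lists share members, and Col3a1 is also in the fibroblast list. Collagens and matrix genes gave 0 higher and 7 lower of 29, with Col3a1 at -0.55, and there were 4 lower without DMSO1_6 library 1 or 2 or DMSO2_6 library 4, 5 or 6 and 2 without DMSO1_6 library 6. Matrix proteases and inhibitors gave 2 higher and 7 lower of 22, with Timp4 at -0.92 and Serpine2 at -0.58. In the IGF system (2 higher and 4 lower of 16), the binding proteins Igfbp5 (-1.24) and Igfbp4 (-0.72) and the ligands Igf1 (-0.52) and Igf2 (-0.30) fell, and the receptor Igf1r rose (0.72). In smooth muscle and pericyte markers, Acta2, Tagln, Cnn1 and Des rose and Pdgfrb, Kcnj8, Rgs5 and Notch3 fell. The part of cell composition in these changes was not tested.

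**Figure D4:**
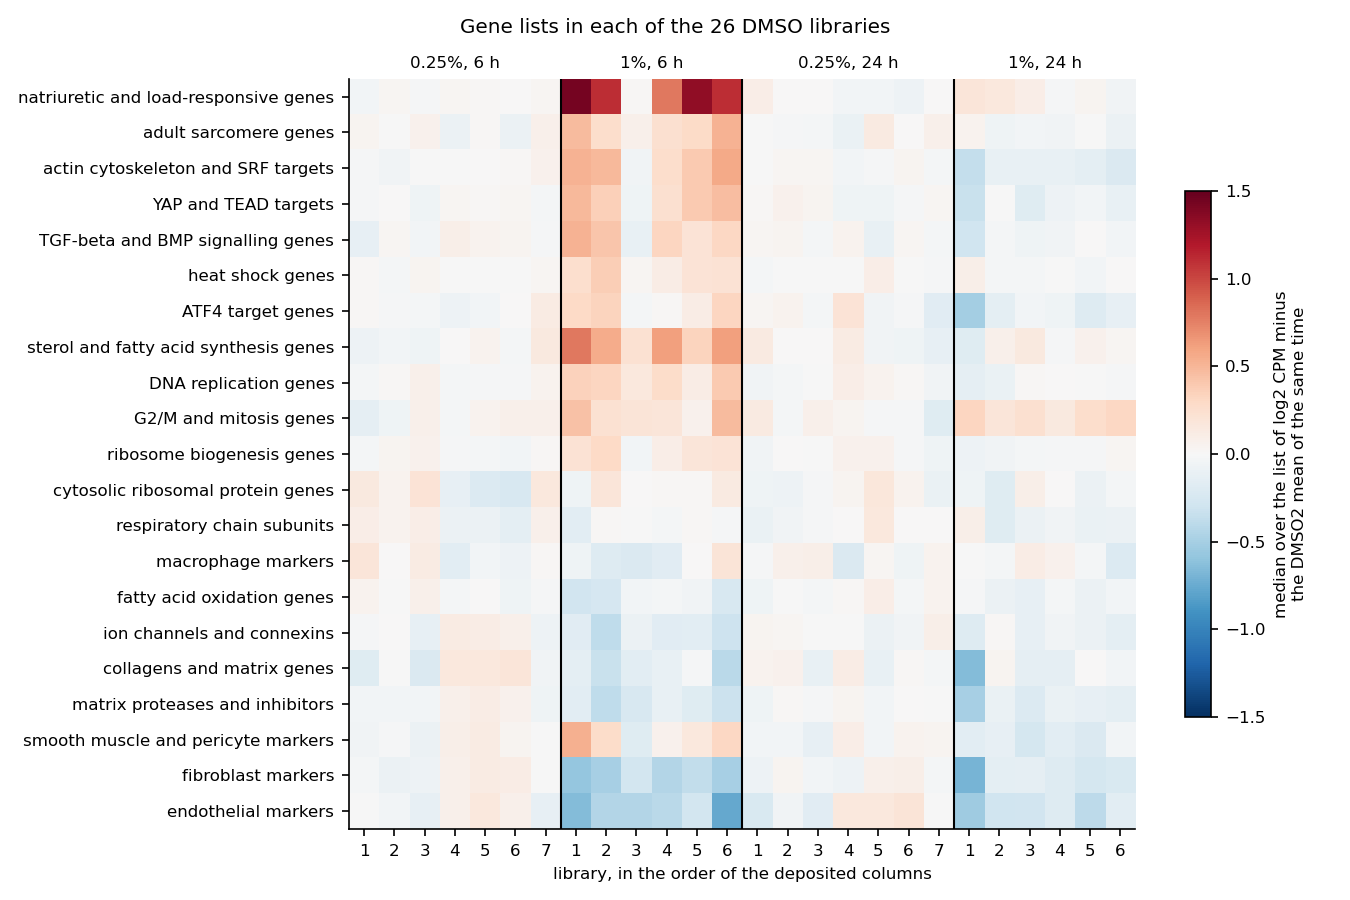
Median over the members of 21 gene lists of log2 CPM minus the DMSO2 mean of the same time, in each of the 26 DMSO libraries (red higher, blue lower). At 6 h, library 3 of 1% DMSO is near 0 for load-responsive genes (0.01, against 0.80 to 1.44) but blue for endothelial markers (-0.44), and the 1% libraries of 24 h are pale in most rows.

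Other genes with the largest changes lay outside these lists (among genes with a mean count of at least 100). Rnd1, a small GTPase that loosens actin stress fibres, lay between 9.93 and 13.01 CPM in DMSO2, at 11.9 CPM in library 3 and between 36.9 and 87.6 CPM in the other DMSO1 libraries (2.40 ± 0.20, edgeR FDR = 1.28e-13, the smallest of all genes). Creb5, a transcription factor of the CREB family, rose by 2.52 ± 0.32, Ildr2 by 2.41 ± 0.25, Tceal7 by 2.29 ± 0.37, and Fhad1, Efcab6 and Bean1 by 1.80 to 1.99. Among the decreases, Plppr4, a lipid phosphatase-related membrane protein, lay between 16.3 and 23.9 CPM in DMSO2 and between 5.88 and 16.4 CPM in DMSO1, where library 3 alone reached the DMSO2 range (-1.30 ± 0.14, edgeR FDR = 3.85e-10). Apln, the peptide hormone apelin, fell by 1.04 ± 0.21, Adamtsl2, a matrix protein, by 1.13 ± 0.12, and Reg3b, Pde7b, Ddit4l, Afap1l2, Capn6, C14h7orf57, Flrt3 and Gstt3 by 0.96 to 1.14. Without library 3 all 15 largest increases and 15 largest decreases were still called, Nppb at 4.03 ± 0.27 and Cldn5 at -1.65 ± 0.27.

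After 24 h the difference between the concentrations was smaller. DMSO1_24 and DMSO2_24 gave 63 DEGs (0.433%), 20 higher and 43 lower, or 71 higher and 17 lower with library size alone. In edgeR, 2370 of 14554 genes had an unadjusted p below 0.05 at 24 h. Of the 2397 DEGs of 6 h, 24 were also called at 24 h, and 23 of them in the same direction, 7 higher and 16 lower. The exception was Wdr1, which helps to take actin filaments apart, higher at 6 h (0.20) and lower at 24 h (-0.27). Without DMSO1_24 library 1 its 24 h value was -0.23 (edgeR FDR = 0.0331), and at each time 10 alternatives left it uncalled. The effect itself differed between the times for 556 genes (3.82%), 498 of them DEGs of 6 h, and in each of the 498 the 24 h effect had moved against the 6 h direction. The 6 h libraries enter both the call and this difference, so that its direction is partly fixed by the choice of genes. For 1876 of the 2397, neither the 24 h effect nor the difference passed, and whether they persisted could not be decided.

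The 24 h values of the 6 h DEGs came from separate libraries. Of the 1436 genes higher at 6 h, 61.4% were above 0 at 24 h, against 47.7% of all genes, with a median of 0.03 (0.36 at 6 h). Of the 961 lower genes, 80.1% were below 0, against 52.2% of all genes, with a median of -0.11 (-0.41 at 6 h). For changes of at least 1, the median of the 125 increases went from 1.46 to 0.17 and that of the 40 decreases from -1.16 to -0.33. Without DMSO1_6 library 3 and DMSO1_24 library 1, 56.3% of the higher genes were above 0 (46.5% of all) and 72% of the lower genes below 0 (53.4% of all).

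**Figure D5:**
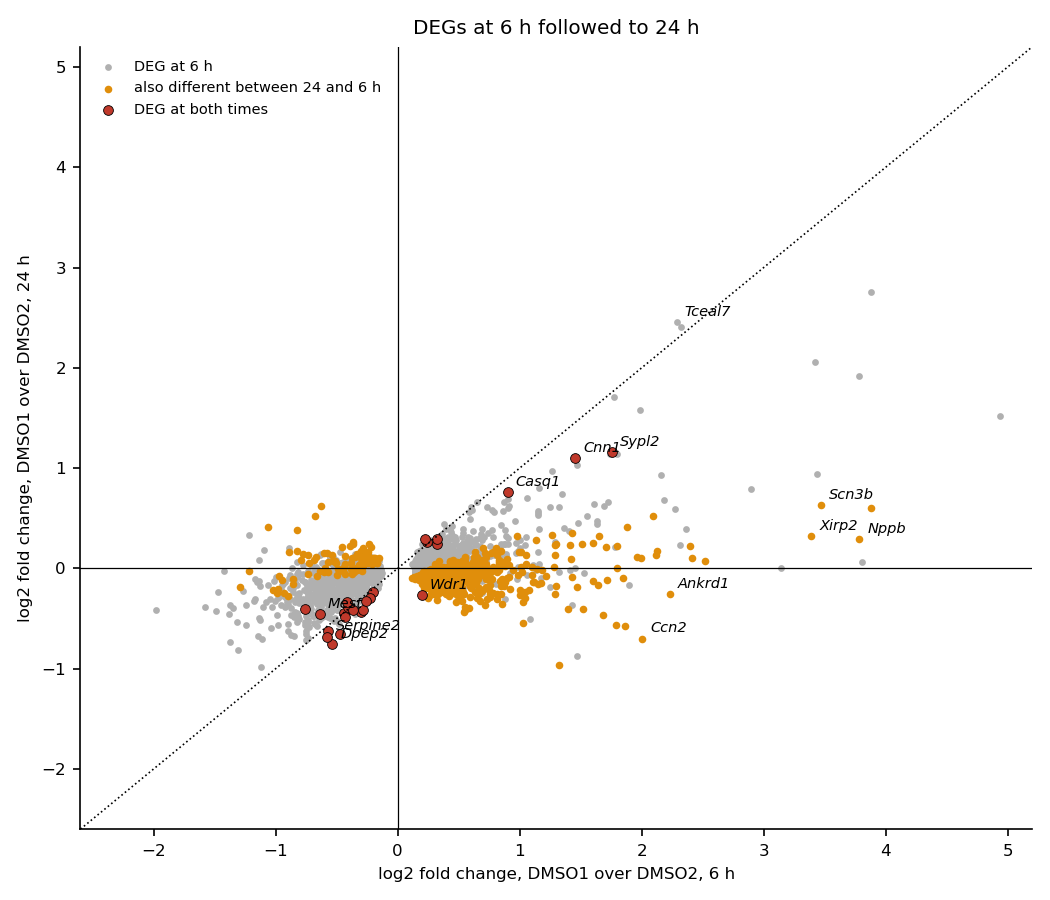
Log2 fold change of DMSO1 over DMSO2 at 24 h (vertical axis) against that at 6 h (horizontal axis) for the 2397 DEGs of 6 h, with a dotted line at equal effects. Orange points are genes whose effect differed between the times and red points the 24 called at both; Nppb, Xirp2, Ankrd1 and Ccn2 lie far below the line, and Cnn1, Sypl2 and Casq1 closer to it.

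Of the 26 load-responsive genes, 0 were called at 24 h in edgeR (8 at an unadjusted p below 0.05, median 0.03), and the effect differed between the times for 11. Nppb lay between 16.4 and 23.1 CPM in DMSO2_24 and between 21.96 and 28.4 CPM in DMSO1_24 (0.29, edgeR FDR = 0.747), and its effect differed from that at 6 h by -3.49 ± 0.48 (FDR = 2.63e-06). Ankrd1 and Ccn2 were on the other side of 0, at -0.26 and -0.70 (edgeR FDR = 0.606 and 0.0504), with differences of -2.49 ± 0.31 and -2.70 ± 0.29. Acta1 kept a value of 1.14 (edgeR FDR = 0.0172) and Tceal7, outside the list, one of 2.46 (FDR = 0.0152), neither called. The sterol genes had 0 calls (4 at an unadjusted p below 0.05, median -0.003), and the effect differed for 11 of 25. Hmgcs1 lay between 81.5 and 106 CPM in DMSO1_24 and between 84.1 and 100.3 CPM in DMSO2_24, below its 6 h level in both groups.

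The actin list had a median of 0.36 at 6 h and -0.16 at 24 h, when 16 of its 20 members were below 0. Actb, cytoplasmic actin, was lower at 24 h (-0.33, edgeR FDR = 0.00344) and had a value of -0.26 without DMSO1_24 library 1, no longer called (FDR = 0.0299), and Cnn1 was higher. The list median was -0.35 in library 1 and -0.21 to -0.11 in the other 5 DMSO1_24 libraries. YAP and TEAD targets were below 0 in 12 of 13 at 24 h, with 0 called and 3 at an unadjusted p below 0.05 in edgeR.

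Endothelial and fibroblast markers were mostly below 0 at 24 h too, with few calls. All 14 endothelial markers were below 0 (median -0.33, 0 called and 9 at an unadjusted p below 0.05 in edgeR), and 10 of 12 fibroblast markers were (median -0.24, 1 called, Dcn). Dcn, the proteoglycan decorin, went from -0.34 to -0.27 without DMSO1_24 library 1 and was then not called (edgeR FDR = 0.0562). The fibroblast list median was -0.70 in library 1 and -0.26 to -0.13 in the other 5 DMSO1_24 libraries. Smooth muscle and pericyte markers had a median of 0.25 at 6 h and -0.18 at 24 h. The effect differed between the times for 0 members of the endothelial or fibroblast list. Over all genes it differed for 3.82%, and among the 961 genes lower at 6 h for 89. In lists this short, 0 does not show that the effects persisted. The summed endothelial level was 329 to 443 CPM in DMSO1_24 and 421 to 543 CPM in DMSO2_24. The summed fibroblast level was 10060 to 20020 CPM (median 16355) in DMSO1_24 and 15240 to 19030 CPM (median 16740) in DMSO2_24. Its lowest value was DMSO1_24 library 1, and the next in that group was 15040 CPM. The groups overlapped in both sums, and the fibroblast sums showed no clear fall. G2/M genes were above 0 in 25 of 25 (median 0.27), with 0 called and 17 at an unadjusted p below 0.05 in edgeR.

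Among the genes called at both times, Serpine2, an inhibitor of thrombin and plasminogen activators, lay between 25.4 and 29.9 CPM in DMSO2 and between 15.2 and 22.2 CPM in DMSO1 at 6 h (-0.58 ± 0.09). At 24 h it lay between 40.4 and 55.6 CPM in DMSO2_24 and between 23.9 and 32.8 CPM in DMSO1_24 (-0.68 ± 0.09, edgeR FDR = 4.89e-06). The groups did not overlap at either time. Mest, an imprinted gene of mesodermal tissues, lay between 74.5 and 90.2 CPM in DMSO2 and between 48.7 and 57.3 CPM in DMSO1 at 6 h (-0.64 ± 0.08). At 24 h it lay between 159 and 203 CPM in DMSO2_24 and between 108 and 149 CPM in DMSO1_24 (-0.46 ± 0.08, edgeR FDR = 0.00083), again without overlap. Dpep2, a membrane dipeptidase, was lower by 0.54 ± 0.13 and 0.76 ± 0.13, and Wdr47 was higher by 0.32 ± 0.05 and 0.29 ± 0.05. These 4 genes were the ones still called at both times without DMSO1_6 library 3 and DMSO1_24 library 1.

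Casq1, skeletal muscle calsequestrin, was higher by 0.90 ± 0.14 and 0.76 ± 0.15, with overlapping groups at 24 h, between 33.98 and 61.2 CPM in DMSO2_24 and between 48.97 and 83.7 CPM in DMSO1_24. Cnn1 was higher by 1.46 ± 0.23 and 1.10 ± 0.25, Sypl2, a membrane protein of the muscle triad, by 1.75 ± 0.22 and 1.16 ± 0.26, and Klhl2, an actin-binding adaptor of a ubiquitin ligase, by 0.24 and 0.26. Adra1b was lower at both times (-0.76 ± 0.09 and -0.41 ± 0.08), without overlap at either. Lower too were the growth factor Igf2 (-0.30 and -0.43), the chemokine Cxcl12 (-0.44 and -0.45), the signalling inhibitor Spry2, the myosin light chain kinase Mylk, and Dap, Mrgprf and Baalc. Without DMSO1_24 library 1 these 12 genes were not called at 24 h (edgeR FDR between 0.0196 and 0.0429), and all kept their direction. Casq1 then stood at 0.71, Cnn1 at 1.01, Sypl2 at 1.08, Klhl2 at 0.24 and Adra1b at -0.38, and the largest change was in Mylk, from -0.48 to -0.34.

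The number of 24 h calls moved with several libraries. There were 10 without DMSO1_24 library 1, all among the 63, then 18, 20 and 26 without DMSO2_24 library 5, 7 or 6, and 162 without DMSO1_24 library 4. DMSO1_24 library 1 also stood apart in p53 targets, with a summed level of 4614 CPM. The other 5 DMSO1_24 libraries lay between 1930 and 2077 CPM. The list median was 0.575 in library 1 and -0.03 to 0.11 in the other 5. At 24 h, 0 of 25 p53 targets were called and 15 had an unadjusted p below 0.05 in edgeR. The values of a few named genes came mainly from DMSO1_24 library 1. Ano3, an anoctamin, had the largest increase at 24 h among genes with a mean count of at least 100 (1.57). It lay at 42.1 CPM in library 1 and between 2.87 and 4.43 CPM in the other 5 DMSO1_24 libraries, and its value was 0.12 without library 1. Ckap2, a spindle protein, went from 0.85 to 0.29 and Nptxr, a pentraxin receptor, from 0.64 to 0.34 in the same way. Pla2g2a, a secreted phospholipase (-1.09 ± 0.23), Kcne3, a potassium channel subunit (-0.82 ± 0.18), and Corin, the protease that activates atrial natriuretic peptide (-0.77 ± 0.16), were lower at 24 h and not called at 6 h (-0.37, -0.60 and -0.36). Without library 1 their values were -1.12, -0.77 and -0.70, no longer called (edgeR FDR between 0.0236 and 0.0358). Plppr4, Flrt3, the germline gene Piwil2 and the mitochondrial carrier Slc25a34 had positive differences between the times that were among the largest (0.90 to 1.11), with 24 h values between -0.19 and 0.16.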

How the data were processed

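PolyA-selected RNA of rat cardiomyocyte cultures was sequenced. Per the study's methods and the labels, the authors quantified transcripts with kallisto 0.46.0 and summed them to genes with tximport, and deposited a table of estimated counts, which holds whole numbers and is not normalised. Groups were taken from the column headings, which match the labels. Genes that reached 10 counts in 1 or more of the libraries were tested with edgeR 4.0.16 (R 4.3.3): TMM normalisation, quasi-likelihood F-test, 1 model of all 10 groups and 65 libraries, Benjamini-Hochberg FDR below 0.01 over all genes. The contrasts were DMSO1 against DMSO2 at 6 h, at 24 h, and their difference. Log2 fold changes are given with their standard errors. CPM used TMM-scaled library sizes, except for the principal components at 24 h, which used library size alone. Libraries of the same group differed by more than sampling noise in each of 72 pairs (chi-square per gene 3.61 to 82.2), so none was counted as a repeat.

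The genes named are the 15 largest increases and decreases at 6 h, the 5 largest at 24 h and of the difference (symbol and mean count of at least 100), 15 of the genes called at both times, and members of 43 gene lists. A few genes that this rule or the lists take in are not reported here. Sypl2 was named after its values were seen. The members and lists were chosen with earlier results of these data known. Alternatives were DESeq2 1.42.0, limma 3.58.1 with library weights, other scalings, filters, thresholds and sets of groups, and leaving out each library. The test was checked on simulated counts. Promoter sequences came from RefSeq (GRCr8), matched by gene, where genes with several starts counted with any window. Sequences of genes with no window in that table are not shown.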

Additional observations from a re-analysis of the deposited data

Results flagged for a closer look

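The effect of 1% against 0.25% DMSO differed between 24 and 6 h, by edgeR's test of the difference itself, for 556 genes. Among genes with a mean count of at least 100, the largest negative differences (log2 fold change at 24 h minus that at 6 h) were -3.487 for Nppb, -3.069 for Xirp2, -2.834 for Scn3b, -2.703 for Ccn2 and -2.489 for Ankrd1, all higher in 1% DMSO at 6 h. Among the largest positive differences were 1.105 for Plppr4, 1.047 for Piwil2, 0.9229 for Slc25a34 and 0.9033 for Flrt3, all lower in 1% DMSO at 6 h.

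A single library lay far from the rest of its group in 20 of 212 sets (53 genes in 4 groups). The measure was the gap to its neighbour as a share of the group's range. The limit was set to be passed by chance in about 1 of 20 independent sets. That rate does not hold here, because the genes were chosen by their changes in these same libraries and share them. DMSO1_24 library 1 accounted for 12 of them. It was the highest of its group for Rnd1 (0.632), Ano3 (0.841), Ckap2 (0.831) and Nptxr (0.763) and the lowest for Ccn2 (0.751), Igfbp5 (0.727), Adamtsl2 (0.716), Afap1l2 (0.642), Capn6 (0.719), Serpine2 (0.642), Mest (0.668) and Mylk (0.801), where the value is that share. In DMSO1_6, library 3 was the lowest for Fhl1 (0.625) and the highest for Capn6 (0.665), and library 1 the lowest for Apln (0.718). In the DMSO2 groups, DMSO2_24 library 1 was the highest for Fhl1 (0.573), DMSO2_24 library 4 was the lowest for Cxcl12 (0.596), DMSO2_6 library 5 was the highest for Serpine2 (0.73), DMSO2_6 library 7 was the lowest for Plppr4 (0.605) and DMSO2_6 library 7 was the highest for Cnn1 (0.69).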

How the results depend on the processing

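Directions under the alternatives were checked for 284 genes at 6 h, 22 at 24 h and 10 for the difference, and none changed. Sypl2, Actb and Dcn were not among those checked at 24 h. Small medians of some lists changed sign with library size alone. The main counts were 2397 DEGs at 6 h, 63 at 24 h, 556 genes with a different effect between the times and 23 persistent DEGs, called at both times in the same direction. All 4 stayed within 1.5 times with DESeq2 size factors, library size alone, the 4 DMSO groups alone in the fit, another or no low-count filter and a robust spread. The genes behind the 24 h counts were not always the same. With library size alone, 37 of the 63 and 12 of the 23 were kept, and with the 4 DMSO groups alone 33 and 14. The other settings in this group kept at least 58 and 21. DESeq2's Wald test gave 181 DEGs at 24 h and 81 persistent, limma with library weights 218, 95 and 1405 differences, and a fit of the 2 compared groups alone 1588 at 6 h, 17 at 24 h and 8 persistent, with no value for the difference. In the same order as the main counts, an FDR below 0.05 gave 3809, 376, 1262 and 161, an FDR below 0.1 gave 4751, 764, 1905 and 323, and a log2 fold change of at least 1 gave 165, 8, 90 and 2. Leaving out single libraries gave 1655 (DMSO1_6 library 6) to 2892 (DMSO1_6 library 3) at 6 h, 10 (DMSO1_24 library 1) to 162 (DMSO1_24 library 4) at 24 h, 340 (DMSO1_6 library 6) to 1055 (DMSO1_6 library 3) differences (also lower by over 1.5 times without DMSO1_6 library 1 or 2) and 4 to 54 persistent DEGs (without DMSO1_24 library 1 and 4). The 24 h count was also lower by more than 1.5 times without DMSO1_24 library 5 (31), DMSO1_24 library 6 (30), DMSO2_24 library 2 (33), DMSO2_24 library 3 (35), DMSO2_24 library 4 (41), DMSO2_24 library 5 (18), DMSO2_24 library 6 (26) and DMSO2_24 library 7 (20). Without DMSO1_6 library 3 and DMSO1_24 library 1, an alternative chosen after seeing the data, there were 3026, 11, 1075 and 4. The causes were not tested. Of 284 genes named or called in a list at 6 h, 190 were called in every alternative, against 2 of 22 at 24 h and 7 of 10 for the difference. No paired analysis was possible because the deposited columns carry no replicate numbers. Wells of 1 cell pool cannot show how the response varies between pools, and the absence of a solvent-free group leaves the effect of 0.25% DMSO unknown.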
